A study of Mus musculus with 6 samples.

Results

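The interferon regulatory factors (IRFs) are transcription factors that share a DNA-binding domain at their amino terminus and bind GAAA-containing elements. The members were the genes with symbols Irf1 to Irf5 and Irf7 to Irf9, 8 of the 21442 genes measured, covered by 86 of 241383 exon-level probe sets. They were measured by Affymetrix gene array in natural killer (NK) cells from C57BL/6 mouse spleen (the strain field of the labels has C57BL/5). Spleen cells were stripped of T cells with anti-Thy1.2 and complement and grown for 7 days in 1000 IU interleukin-2. They were then sorted as CD3-CD122+ cells into a Ly49C/I+ subset without Ly49G2 and a Ly49G2+ subset without Ly49C/I, with 3 arrays each. All 6 samples share the strain, tissue, depletion and culture, and no other genotype, age or sex is used here. Whether replicates came from separate mice or cultures is not given in the labels, so a p-value here reflects array-to-array spread alone, possibly technical. For Ly49G2+ replicate 1 the title and description give this subset but the source field gives the other.

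Within the family, IRF1 activates and IRF2 mostly represses the same interferon-type elements. IRF3 and IRF7 are switched on by kinases downstream of viral nucleic acid sensors, and IRF9 joins STAT2 in a complex that answers type I interferon. IRF4, IRF5 and IRF8 are restricted largely to immune cells. IRF4 and IRF8 bind DNA weakly alone and pair with ETS, AP-1 or other partners. IRF4 scales with antigen receptor signalling in lymphocytes, IRF5 is best known from Toll-like receptor responses of myeloid cells, and IRF8 directs dendritic cell and monocyte development. In mouse NK cells IRF2 is needed for maturation and IRF8 for the antiviral response, in which it induces Zbtb32.

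The start-site sequences of the genes that differed between the subsets, Irf4, Irf5 and Irf8, are shown first, since they are the part of each gene where regulators assemble. The 250 bases before each RefSeq start (build GRCm38.p6, all on the + strand) lie at chr13:30748983-30749232 for Irf4, chr6:29526375-29526624 for Irf5 and chr8:120736108-120736357 for the first start of Irf8. Capitals mark letters that match a searched motif.
Irf4: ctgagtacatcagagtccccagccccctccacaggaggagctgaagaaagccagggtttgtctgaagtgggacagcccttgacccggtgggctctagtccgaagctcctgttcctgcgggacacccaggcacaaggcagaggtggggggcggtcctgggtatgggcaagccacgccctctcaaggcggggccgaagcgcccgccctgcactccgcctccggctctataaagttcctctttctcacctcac
Irf5: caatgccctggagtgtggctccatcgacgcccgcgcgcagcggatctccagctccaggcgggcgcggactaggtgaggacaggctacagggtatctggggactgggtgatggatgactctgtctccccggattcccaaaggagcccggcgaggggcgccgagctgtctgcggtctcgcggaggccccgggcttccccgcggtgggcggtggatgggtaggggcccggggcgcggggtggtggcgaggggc
Irf8: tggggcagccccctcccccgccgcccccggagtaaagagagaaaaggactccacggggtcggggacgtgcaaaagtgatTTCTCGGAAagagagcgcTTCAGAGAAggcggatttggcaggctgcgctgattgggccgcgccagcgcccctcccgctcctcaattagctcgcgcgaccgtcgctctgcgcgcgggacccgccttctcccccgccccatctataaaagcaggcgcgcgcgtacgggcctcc

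5 motifs were searched on both strands in the 250 bases before the start. These were the STAT element GAS (TTCNNNGAA, in 7.02% of 32851 mouse promoter windows), a pair of IRF cores (GAAANNGAAA, 2.98%), the ETS-IRF composite (GGAANNGAAA, 2.3%), AP-1 (TGANTCA, 6.75%) and the kB consensus (5%). All 8 members had a window, 11 windows in all. The first Irf8 window held 2 GAS matches, which begin 171 and 153 bases before the start and are the capitals in its sequence. None of the 5 motifs occurred in these windows of Irf4 and Irf5, which says only that these letters are absent there. Among members without a called difference, Irf1 held a GAS match and a kB match in its first window, and Irf2 held 4 kinds of motif. Irf3, Irf7 and Irf9 held no match, nor did the second windows of Irf1 and Irf8. With Irf4 and Irf5, 5 of the 8 members had no match, so matches did not separate called from other members. The stretches of Irf1 (chr11:53769909-53769947) and Irf2 (chr8:46739495-46739544) are shown for contrast, and in Irf2 the ETS-IRF composite and the IRF pair overlap.
Irf1: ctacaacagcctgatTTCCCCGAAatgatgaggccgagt
Irf2: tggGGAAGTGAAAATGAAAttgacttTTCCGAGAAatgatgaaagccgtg

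The comparison asked whether the IRF genes differ between the subsets, commonly called licensed (Ly49C/I+) and unlicensed (Ly49G2+) in this strain. Irf4, Irf5 and Irf8 were higher in Ly49G2+ cells, by 1.39-fold, 1.23-fold and 1.17-fold. The other 5 members, Irf1, Irf2, Irf3, Irf7 and Irf9, did not pass the test. In a limma fit on all 21442 genes with Benjamini-Hochberg adjustment at 0.05, 3 of 8 members were thus called toward Ly49G2+ cells and 0 toward Ly49C/I+ cells. Over all genes 3.72% were called toward Ly49G2+ cells and 6.16% toward Ly49C/I+ cells, 9.88% together. At an unadjusted limma p under 0.05, 4 members differed, Irf9 being the addition. Of all genes 23% met that threshold, 10.7% toward Ly49G2+ and 12.3% toward Ly49C/I+ cells. The median log2 difference (Ly49C/I+ minus Ly49G2+, the direction used throughout) was 0.02 over the 8 members and -0.01 over all genes. In cell populations, fewer cells with a transcript and less of it per cell cannot be told apart.

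**Figure D1:**
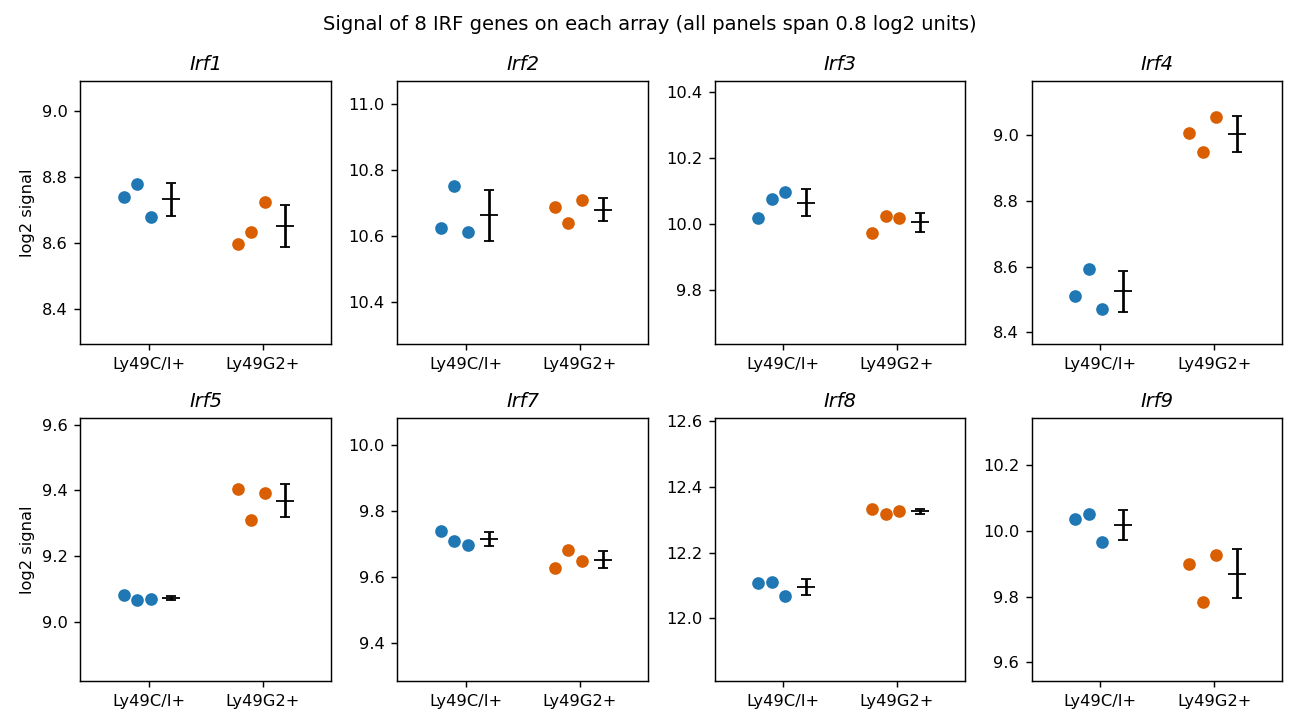
Log2 signal of each IRF gene on the 6 arrays; points are arrays (Ly49C/I+ blue, Ly49G2+ orange), bars show mean ± SD of 3 arrays, and every panel spans the same log2 range. All Ly49G2+ arrays lie above all Ly49C/I+ arrays for Irf4, Irf5 and Irf8.

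Irf4, the lymphocyte activation factor, had log2 signals of 8.51, 8.59 and 8.47 on Ly49C/I+ replicates 1, 2 and 3, and of 9.01, 8.95 and 9.06 on the Ly49G2+ replicates. Every Ly49G2+ array was above every Ly49C/I+ array, by more than the spread within either subset. Means were 8.52 ± 0.061 (SD, n = 3) and 9.00 ± 0.054, differing by -0.48 ± 0.050 (SE) log2 units with limma adjusted p = 0.000380. The 95% interval of the difference ran from -0.59 to -0.37. Irf4 passed in 17 of 17 alternative analyses, with differences between -0.51 and -0.45. In several of these, such as the variance trend and the replicate block, the difference cannot change and only its SE and p-value moved.

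Irf5, the Toll-like receptor effector, lay at 9.08, 9.07 and 9.07 on the Ly49C/I+ arrays and at 9.40, 9.31 and 9.39 on the Ly49G2+ arrays (log2 signal). The Ly49C/I+ arrays were almost equal, and the lowest Ly49G2+ array, replicate 2, was still above them. The log2 difference was -0.30 ± 0.044 (SE; 95% interval -0.39 to -0.20), with limma adjusted p = 0.00248. With the median of its probe sets in place of the mean, the difference was -0.22 and did not pass (limma adjusted p = 0.232).

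Irf8, the dendritic cell and monocyte factor, had log2 signals of 12.11, 12.11 and 12.07 for Ly49C/I+ and 12.33, 12.32 and 12.33 for Ly49G2+ cells. The subsets were apart on all arrays, and the 3 Ly49G2+ values were almost the same. Means were 12.09 ± 0.025 (SD, n = 3) and 12.32 ± 0.0069, and their difference was -0.23 log2 units ± 0.041 (SE; 95% interval -0.32 to -0.14) with limma adjusted p = 0.00637. Taking the probe set median gave a larger difference, -0.29, but its SE rose to 0.067 and it did not pass (limma adjusted p = 0.0662). Under that setting 1 of 8 members, Irf4, was called. Whether Irf4 differed more than Irf8 was not tested, although their intervals do not overlap.

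**Figure D2:**
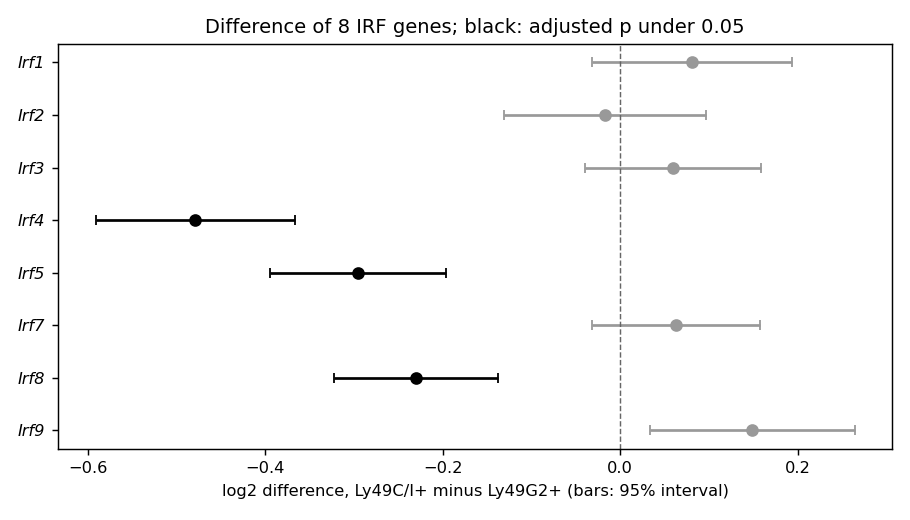
Log2 difference between the subsets for each IRF gene (x axis, Ly49C/I+ minus Ly49G2+), with 95% intervals from the limma fit; black points passed at adjusted p under 0.05. Irf4, Irf5 and Irf8 lie left of 0 with intervals clear of it, and the other members lie within 0.15 of 0.

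The members that were not called showed small differences. Irf9, the DNA-binding part of the interferon-activated complex, was at 10.04, 10.05 and 9.97 on the Ly49C/I+ arrays against 9.90, 9.78 and 9.93 on the Ly49G2+ arrays. These values did not overlap, but the log2 difference of 0.15 ± 0.052 (SE; 95% interval 0.03 to 0.26) did not pass (limma adjusted p = 0.109). Irf7, the amplifier of type I interferon production, had 9.74, 9.71 and 9.70 in the Ly49C/I+ subset against 9.63, 9.68 and 9.65 in the Ly49G2+ subset. Its log2 difference was 0.06 (95% interval -0.03 to 0.16), smaller than that of Irf9 and again without overlap. Groups did not overlap in 27.8% of all genes, with every Ly49G2+ array above in 13.5% and every Ly49C/I+ array above in 14.3%, so that the lack of overlap in 5 of 8 members (Irf4, Irf5 and Irf8 in one direction, Irf7 and Irf9 in the other) is to be read against that share. For each of these 5 the two-sided exact permutation p was 0.1, the smallest that 3 against 3 arrays allow.

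Irf1, Irf2 and Irf3 overlapped between the subsets. Irf1, an interferon-inducible activator, had 8.74, 8.78 and 8.68 on the Ly49C/I+ arrays and 8.60, 8.63 and 8.72 on the Ly49G2+ arrays. Its log2 difference was 0.08 (95% interval -0.03 to 0.19). Irf2 lay at 10.62, 10.75 and 10.61 on the Ly49C/I+ arrays and at 10.69, 10.64 and 10.71 on the Ly49G2+ arrays. The Irf2 values differed by -0.02 log2 units (95% interval -0.13 to 0.10). Irf3, which exists ready-made in resting cells, read 10.02, 10.08 and 10.10 against 9.97, 10.02 and 10.02, a difference of 0.06 log2 units (95% interval -0.04 to 0.16). For these 3 genes and for Irf7 the intervals of the difference lay between -0.13 and 0.19 log2 units. Irf1 alone was represented by 2 transcript clusters, of 13 and 1 probe sets. Mean log2 signals of the larger cluster were 10.38 (Ly49C/I+) and 10.36 (Ly49G2+), and those of the smaller were 7.08 and 6.94. The gene values of Irf1 above weight both clusters equally, so they lie well below the level of the larger cluster. The clusters differed by 0.03 and 0.14, and with all 14 probe sets weighted equally the difference of Irf1 was 0.03.

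The exon-level probe sets, which target separate stretches of a transcript, were examined next for whether a gene moved as a whole. All 10 probe sets of Irf4, all 9 of Irf5 and all 11 of Irf8 had a higher mean in Ly49G2+ cells. Every Ly49G2+ array was above every Ly49C/I+ array in 10, 6 and 9 of them, 25 of 30 together. Over all probe sets 18.8% had groups that did not overlap, 8.47% with every Ly49G2+ array above and 10.3% with every Ly49C/I+ array above. Probe sets of a gene share the same RNA and arrays and are not replicates. The 30 belong to genes called on the mean of these same probe sets. Their direction, separation and p-values therefore follow largely from that call, and the counts are a description, not further support. None of the 86 probe sets passed limma on its own when adjusted over all 241383 (lowest adjusted p = 0.0808). Over all probe sets this rule called 0.0261%, 0.0133% toward Ly49G2+ and 0.0128% toward Ly49C/I+ cells. At an unadjusted limma p under 0.05, 22 of the 30 differed, each toward Ly49G2+ cells, where 12.6% of all probe sets did so, 5.24% toward Ly49G2+ and 7.39% toward Ly49C/I+ cells.

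**Figure D3:**
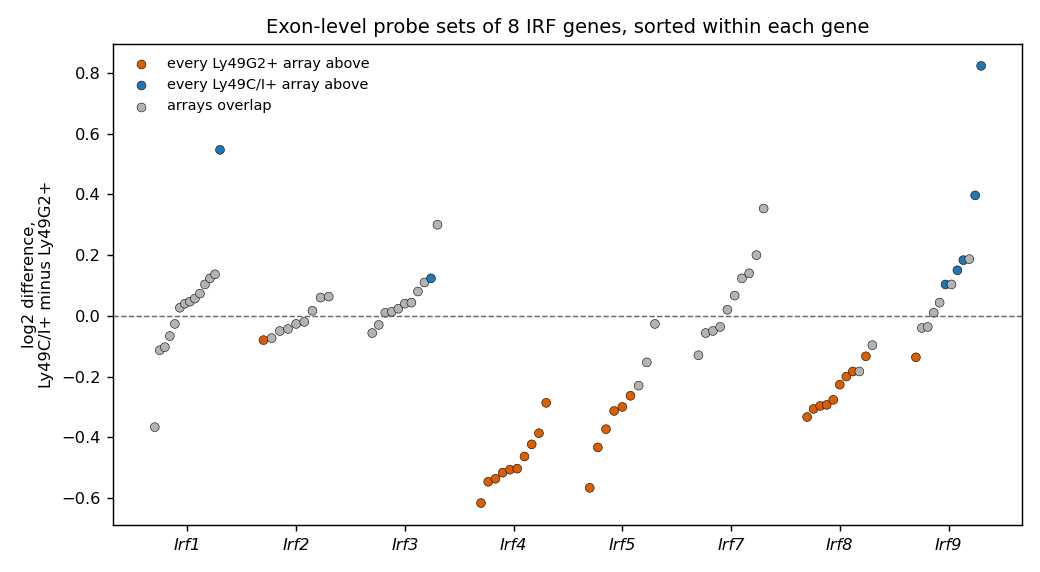
Log2 difference (Ly49C/I+ minus Ly49G2+) of each exon-level probe set of the IRF genes, sorted within a gene; orange points have every Ly49G2+ array above every Ly49C/I+ array, blue the reverse, and grey overlap. All 30 probe sets of Irf4, Irf5 and Irf8 lie below 0, and those of the other genes lie on both sides.

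The size varied along each gene. In Irf4 the log2 difference ran from -0.29 at probe set 1 in ID order to -0.62 at probe set 10. Probe set 10 read 8.94, 9.03 and 9.09 on the Ly49C/I+ arrays against 9.67, 9.62 and 9.62 on the Ly49G2+ arrays. Irf5 had a wider range, from -0.03 at probe set 1 to -0.57 at probe set 4. Probe set 4 read 8.08, 8.16 and 7.64 on the Ly49C/I+ arrays and 8.67, 8.61 and 8.30 on the Ly49G2+ arrays, with replicate 3 the lowest in both subsets. Irf8 had the narrowest range of these genes, from -0.33 to -0.10.

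Of the 56 probe sets of the other members, 20 had the larger mean in Ly49G2+ and 36 in Ly49C/I+ cells. Every Ly49G2+ array was above in 2 of them and every Ly49C/I+ array in 7, of which 5 belonged to Irf9. The largest difference of all 86 was that of Irf9 probe set 6, 0.82. It read 6.70, 6.96 and 6.50 for Ly49C/I+ against 6.41, 5.28 and 6.00 for Ly49G2+ cells, where replicate 2 was far below the others. Taking the probe set median, Irf9 differed by 0.04 log2 units. Irf1 probe set 3 had a difference of 0.55, with every Ly49C/I+ array above. Irf1 probe set 12 had -0.37, where Ly49C/I+ replicate 2 read 7.66 beside 8.76 and 8.59 on the other Ly49C/I+ arrays.

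**Figure D4:**
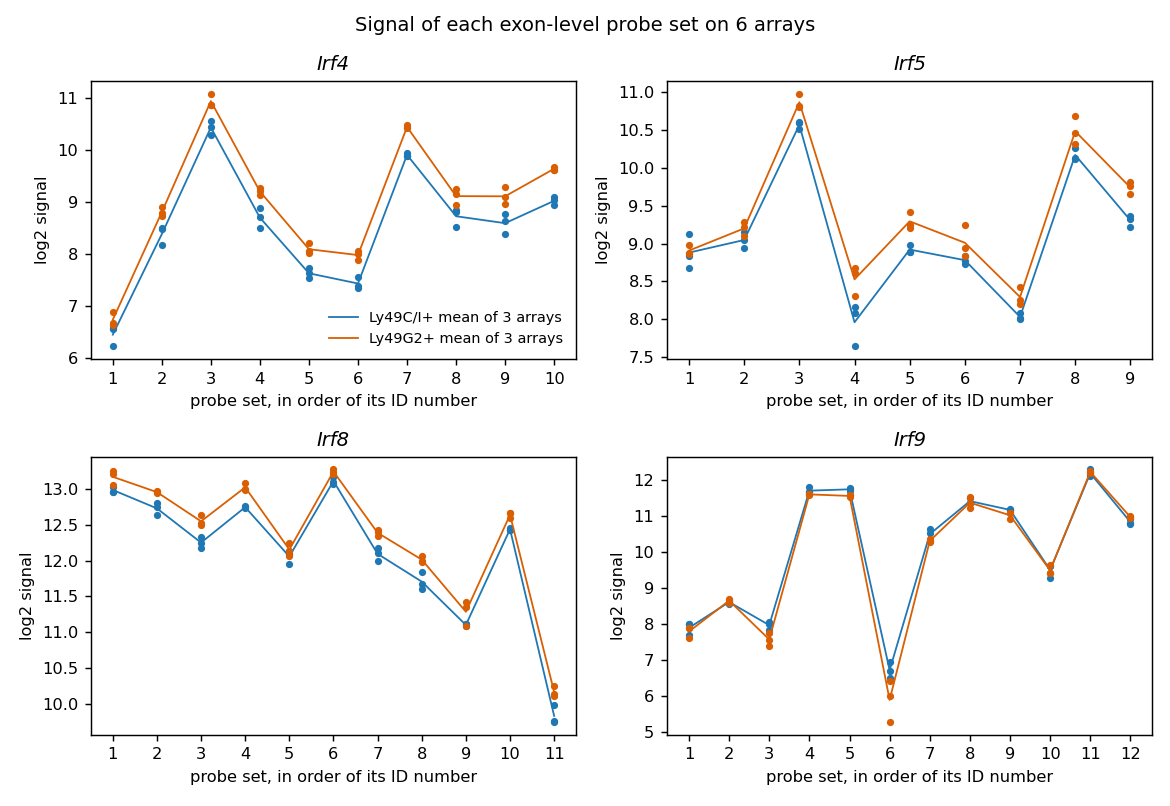
Log2 signal of each exon-level probe set of Irf4, Irf5, Irf8 and Irf9 (x axis, order of probe set ID), with points for arrays and lines for means of 3 arrays. The Ly49G2+ line runs above the Ly49C/I+ line along all of Irf4, Irf5 and Irf8, while for Irf9 the lines cross.

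The authors' deposited table, which summarises each transcript cluster separately, gives a ratio of Ly49C/I+ to Ly49G2+ of 0.711 for Irf4. The ratios of Irf5 and Irf8 in the authors' deposited table are 0.829 and 0.844. That of Irf9 is 1.10, and those of the remaining members in the authors' deposited table lie between 0.967 and 1.10. After Benjamini-Hochberg adjustment of the p-values in the authors' deposited table over 24692 named clusters, 3 members passed, all toward Ly49G2+ cells. Of these clusters in the authors' deposited table, 5.01% passed, 1.94% toward Ly49G2+ and 3.07% toward Ly49C/I+ cells.

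Markers of other cells that use these factors were compared between the subsets, and their part in the results was not tested. Among 13 genes of the T cell list 4 passed, all toward Ly49G2+, where 3.72% of all genes were called that way and 9.88% in either direction. They were Cd3e (log2 difference -2.23), Cd3d (-1.77), Cd3g (-0.99) and Cd8a (-0.72). Differences of Cd4, Cd5, Cd6, Cd8b1, Cd28 and Thy1 lay between -0.09 and 0.10. Of these, Cd28 (10.89 in Ly49C/I+ and 10.95 in Ly49G2+) and Thy1 (12.45 and 12.54) were bright in both subsets. Subset means of Cd4, Cd5, Cd6 and Cd8b1 were low, from 6.16 to 6.59. Trat1 (-0.12), Foxp3 (-0.09) and Ctla4 (-0.06) were not called either. In the list 11 of 13 differences were toward Ly49G2+ cells, with a median of -0.09 against -0.01 for all genes. An unadjusted limma p under 0.05 was met by 5 of the 13, 4 toward Ly49G2+ and 1, Cd6, toward Ly49C/I+ cells. Of all genes 10.7% and 12.3% met it in these directions. The mean level of the list was 7.48 to 7.58 on Ly49C/I+ arrays and 7.98 to 8.01 on Ly49G2+ arrays, with Trat1 below the lower quartile of all probe sets (5.84 log2). The sort had gated on cells without surface CD3, after depletion through Thy1.2. Of 15 myeloid and dendritic cell markers, from cells where Irf5 and Irf8 are prominent, Cd14 (-0.22) and Ly6g (-0.23) were called toward Ly49G2+ cells, beside 3.72% of all genes. They failed in 8 of 16 and 8 of 15 alternative analyses. At an unadjusted limma p under 0.05, 4 of the 15 differed, all toward Ly49G2+ cells. Of all genes 23% met that threshold, 10.7% toward Ly49G2+ cells. Besides Cd14 and Ly6g these were the dendritic cell genes Siglech (-0.19, at 5.92 and 6.11) and Zbtb46 (-0.15). Other genes of dendritic cells in the list did not differ at that threshold, with Flt3 at 0.04, Xcr1 at -0.003, Clec9a at 0.09 and Batf3 at -0.07. The myeloid and dendritic cell list had mean levels of 6.35 to 6.37 and 6.38 to 6.44. In it 5 markers lay below the lower quartile, among them Ly6g itself and the dendritic cell markers Xcr1 and Clec9a. Of 12 B cell and plasma cell markers 0 passed limma, where 9.88% of all genes did, and 1, Cd79b, had an unadjusted p under 0.05, beside 23% of all genes. The list means were 5.85 to 5.87 and 5.82 to 5.91, and 7 markers, among them Cd79a, Ms4a1 and Jchain, lay below the lower quartile. All 12 NK cell markers were above it, with list means of 11.71 to 11.82 and 11.67 to 11.73. Klrk1 alone passed (0.21), where 6.16% of all genes were called toward Ly49C/I+ cells, and it failed in 9 of 17 alternatives.

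Genes that feed into the IRFs were next. Of 17 measured sensors, adaptors and kinases, 1 was called in each direction, near the 9.88% of all genes called, and the median log2 difference was -0.06 against -0.01 for all genes. At an unadjusted limma p under 0.05, 7 of the 17 differed, 4 toward Ly49G2+ and 3 toward Ly49C/I+ cells, where 23% of all genes did. Tbk1, the kinase that phosphorylates IRF3 and IRF7, was at 9.12 ± 0.016 (SD, n = 3) in Ly49C/I+ and 8.90 ± 0.090 in Ly49G2+ cells (1.17-fold, limma adjusted p = 0.0242). Tlr4, the endotoxin receptor, was at 7.23 ± 0.025 and 7.56 ± 0.091 (1.25-fold higher in Ly49G2+ cells, limma adjusted p = 0.00386). Tbk1 failed in 8 of 17 alternative analyses and Tlr4 in 3.

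Of 16 interferon receptor and JAK-STAT genes, 2 were called toward Ly49C/I+ and 0 toward Ly49G2+, a count near the 9.88% of all genes called, with a median log2 difference of 0.0003. The directions depended on the setting. A variance trend gave 2 in each direction. The authors' deposited p-values after adjustment gave 2 toward Ly49G2+ and 1 toward Ly49C/I+ cells, and a filter at the median signal 1 and 2. At an unadjusted limma p under 0.05, 9 of the 16 differed, 4 toward Ly49G2+ and 5 toward Ly49C/I+ cells, where 23% of all genes did. Stat2, the partner of IRF9, read 9.56, 9.57 and 9.44 on the Ly49C/I+ arrays and 9.12, 9.16 and 9.10 on the Ly49G2+ arrays. The subsets were apart by more than their spread, by 0.40 ± 0.050 log2 units (SE), at limma adjusted p = 0.000964. Taking the probe set median, Stat2 differed by 0.15 and did not pass (limma adjusted p = 0.429), nor did it pass in the authors' deposited table after adjustment. Ptpn6, which encodes the phosphatase SHP-1, was 1.15-fold higher in Ly49C/I+ cells and failed in 7 of 17 alternatives.

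Of 26 interferon genes and genes induced through IRF9 or IRF7, 4 were called toward Ly49C/I+ and 1 toward Ly49G2+ cells, where 6.16% and 3.72% of all genes were, and the median log2 difference was 0.07. At an unadjusted limma p under 0.05, 9 of the 26 differed toward Ly49C/I+ and 2 toward Ly49G2+ cells, where 12.3% and 10.7% of all genes did. Xaf1 (0.36), Ifit2 (0.35), Oas1a (0.35) and Oasl1 (0.20) passed toward Ly49C/I+, and Mx1 (-0.23) passed toward Ly49G2+. None of these 5 passed with the median of probe sets, without variance moderation or in the authors' deposited table after adjustment.

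**Figure D5:**
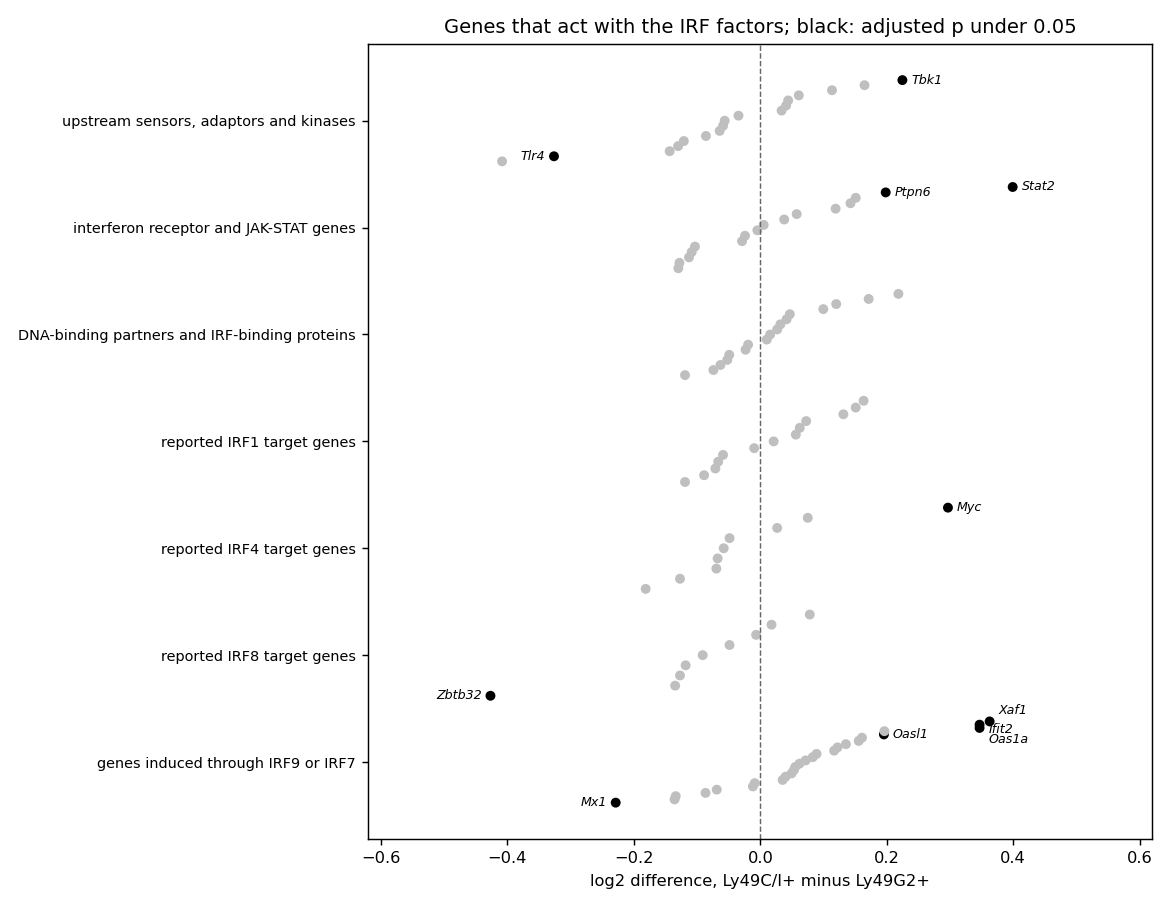
Log2 difference (x axis, Ly49C/I+ minus Ly49G2+) of genes that act upstream of, with or downstream of the IRFs, 1 point per gene, black where limma adjusted p was under 0.05. Most points lie near 0, with Zbtb32 and Tlr4 the black points farthest left and Stat2 farthest right.

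Among proteins that bind IRFs or bind DNA with them, 0 of 17 passed limma and 5 had an unadjusted p under 0.05, as did 23% of all genes. The lowest p belonged to Ikzf3, the zinc finger factor Aiolos (0.17, limma adjusted p = 0.0515), and Trim21, a ubiquitin ligase (0.22, adjusted p = 0.0654). The composite partners of IRF4 and IRF8 did not pass either, Batf3 having -0.07. Among them Spi1 (mean log2 signal 6.5 in both subsets) and Spib (5.9 in both) lay below the median gene signal of 7.08. Spib was close to the lower quartile of probe sets (5.84), so the lack of a call says little about these 2 genes. Of 13 reported IRF1 targets 0 passed limma and 3 had an unadjusted p under 0.05, again beside 23% of all genes, and those of lowest p were Il15ra (0.16) and Cd274 (-0.12).

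Among reported targets of the members that differed, 1 of 9 IRF8 targets and 1 of 9 IRF4 targets passed, counts near the 9.88% of all genes called. The IRF8 target was higher in Ly49G2+ cells, and the list median was -0.09. It was Zbtb32, a repressor of the BTB zinc finger family. Zbtb32 read 10.53, 10.53 and 10.46 on the Ly49C/I+ arrays and 10.93, 10.94 and 10.94 on the Ly49G2+ arrays. These values were apart on all arrays, by -0.43 ± 0.043 log2 units (SE), at limma adjusted p = 0.000318, and Zbtb32 passed in 17 of 17 alternatives. Of the IRF4 targets, described in B or T cells, Myc was higher in Ly49C/I+ cells (0.30, limma adjusted p = 0.00392), opposite to Irf4. Myc failed in 2 of 17 alternatives. In the main fit 0 IRF4 targets passed toward Ly49G2+ cells. With a variance trend, a median signal filter, dim probe sets removed, array weights, or without Ly49G2+ replicate 2, 1 did. The median of the IRF4 list was -0.06, with 6 of the 9 toward Ly49G2+ and 3 toward Ly49C/I+ cells. Prdm1, the gene of Blimp-1, had a log2 difference of 0.08 and Icos one of -0.18, and neither passed.

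By Pearson correlation over the 6 arrays, Zbtb32 was the third most similar of 10720 genes with above-median signal to Irf8 (r = 0.999), after Slc24a3, a cation exchanger, and Gpc1, a cell surface proteoglycan. Slc24a3 was 1.54-fold and Gpc1 1.31-fold higher in Ly49G2+ cells. For Irf4 the most similar were Snora44, a small nucleolar RNA (r = 0.998), Wipi2, an autophagy gene (0.997), and Cep170b (0.997). The arrays fall into 2 groups and share their processing, and the coefficients are given as a description.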

How the data were processed

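The sample titles gave group and replicate. RMA (robust multi-array averaging) and Partek are named per the submitters' processing notes, with versions and settings not given in the sources used here. The authors deposited log2 values of exon-level probe sets per array. A second deposited table holds 35556 transcript clusters with group means on the log2 scale, a p-value, a ratio of Ly49C/I+ to Ly49G2+, the same as a signed fold, and F scores. Array medians lay between 7.73 and 7.75.

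Probe sets were joined to clusters by their unbroken run of ID numbers (241383 joined, 193 not). Group differences after the join correlated with the authors' deposited means at r = 0.947 across clusters, which are not independent. Values were averaged per cluster, then per gene. Symbols were updated through RefSeq accessions (GRCm38.p6). Promoter windows came from RefSeq. The files name no build, so no probe set coordinates are given.

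The subsets were compared by limma 3.58.1 under R 4.3.3 (lmFit, eBayes, no trend, no filter), two-sided, Benjamini-Hochberg over 21442 genes. The fit was tested on simulated data. Exact permutation tests ran over arrays. Python 3.11.15, pandas 2.3.3, numpy 2.4.6 and matplotlib 3.10.9 were used. Arrays give no read depth, and 3 per group limit the precision. Members and gene lists were chosen with earlier results of these data known, and list counts are descriptions. Named genes are the 8 members, the passing genes of each list (or the 2 of lowest p), and the 3 genes most like Irf4 and Irf8; Batf3, Prdm1, Icos and single probe sets were named after their values were seen. The equal weighting of probe sets and the fit per probe set were also chosen after seeing the data. List members Tlr7 and Mb21d1 matched no gene tested and are not analysed here.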

Additional observations from a re-analysis of the deposited data

How the results depend on the processing

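Over 17 alternative analyses Irf4 passed in 17 and Irf5 and Irf8 in 16 each, failing with the median of probe sets, where 1 IRF gene was called. Settings such as a variance trend or the replicate block change the SE and p-value but not the difference. With 1 array left out 3 of 8 members passed in each of 6 fits. The difference of Irf2 lay between -0.062 and 0.0083 with 1 array left out and turned positive without Ly49C/I+ replicate 1 (0.0022) and without replicate 3 (0.0083), and no other member changed sign. The Irf genes not called stayed so in all 17.

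Counts of called list genes moved as follows, in the order sensors and kinases, JAK-STAT, partners, IRF1, IRF4 and IRF8 targets, and induced genes (2, 2, 0, 0, 1, 1 and 5). The median of probe sets gave 0 sensors and kinases, 0 JAK-STAT genes, 0 IRF4 targets and 0 induced genes. Without variance moderation these were 0, 1, 0 and 0, with 1 partner. The authors' deposited p-values gave 0 sensors and kinases, 3 JAK-STAT genes (2 of them toward Ly49G2+), 3 IRF1 targets and 1 induced gene. A variance trend gave 4 JAK-STAT genes (2 in each direction), 2 partners, 2 IRF4 and 2 IRF8 targets. The filter at the median signal gave 3 partners, 1 IRF1 and 2 IRF4 targets. Removing dim probe sets gave 2 IRF4 targets and 2 induced genes, array weights 1 partner, 2 IRF4 and 2 IRF8 targets, and quantile normalization again 1 partner. Leaving out each array in turn gave 1 to 2 sensors and kinases, 1 to 2 JAK-STAT genes, 0 partners, 0 IRF1 targets, 1 to 2 IRF4 targets, 1 IRF8 target and 2 to 4 induced genes. Induced genes numbered 2 without Ly49C/I+ replicate 1 and 3 without Ly49C/I+ replicate 2 or Ly49G2+ replicate 1. JAK-STAT genes numbered 1 without replicate 1 or 3 of either subset, sensors and kinases 1 without any array but Ly49G2+ replicate 1, and IRF4 targets 2 without Ly49G2+ replicate 2. In each setting with 2 IRF4 targets, 1 was called toward Ly49G2+ and 1 toward Ly49C/I+ cells. The cause was not tested.

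Deviations of same-numbered arrays correlated at -0.08, -0.19 and -0.05 and those of other pairs between -0.14 and 0.19, so the numbers were not taken as pairs. With the replicate block 3 members passed, as did 1 JAK-STAT gene, 1 partner and 3 induced genes, and 1476 of all genes against 2118. The count over all genes was 679 with the median of probe sets, 898 without moderation, 1168 with the authors' deposited p-values, and 1351 and 1403 without Ly49C/I+ replicates 2 and 3.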
